A study of Mus musculus with 6 samples.

Results

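The nuclear genes of oxidative phosphorylation were followed in the mouse cells of livers that carried a human hepatocellular carcinoma (HCC) xenograft. Members were the protein-coding mouse genes that reached 10 counts in all and whose symbols belong to the subunit families of the respiratory chain and the ATP synthase (Nduf with a, b, c, s or v and a number, Sdha to Sdhd, Uqcr, Cox4 to Cox8, and Atp5). The rule gave 84 members of 56884 mouse genes in the table, 36 in complex I, 4 in complex II, 8 in complex III, 18 in complex IV and 18 in complex V. A further 5 protein-coding identifiers stayed under 10 counts, among them the muscle isoform gene Cox6a2 and a second identifier of the member Atp5po. Another 18 were pseudogenes or other non-coding genes. Ndufa4 and its paralog Ndufa4l2 carry complex I names and were placed with complex IV, where the NDUFA4 protein sits. The symbol rule does not cover every nuclear subunit: it misses Ndufab1 of complex I and Cyc1 of complex III.

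Oxidative phosphorylation passes electrons from NADH and succinate through complexes I to IV to oxygen, and complex V makes ATP from the proton gradient that results. Most subunits are encoded in the nucleus and are built around a few subunits of the mitochondrial genome, so the pathway draws on both genomes. Hepatocytes are rich in mitochondria, and several subunits exist as paired isoforms that differ between tissues or respond to low oxygen.

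The series holds 3 libraries labelled siControl and 3 labelled siAATF. The hosts were male athymic BALB/c (nu/nu) mice, 6 weeks old by the labels, with cells of the human HCC line QGY-7703 implanted in the liver. An AAV8 vector with a control siRNA or an siRNA against mouse Aatf, driven by the hepatocyte-active TBG promoter, was injected into the tail vein 1 week after implantation, and the mice were kept for 3 more weeks. The labels call the groups wild type and knockdown, and nothing in them ties a replicate number to a shared cage, day or batch.

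Where 3 values are given for a group, they stand in the order of replicates 1, 2 and 3. The mouse tables of the groups differed greatly in depth. The siControl libraries held 213022 to 913584 mouse counts, 0.778% to 1.93% of all their gene counts, and the siAATF libraries 11835898 to 42563694, 97.9% to 99.0%. A gene with no counts could therefore still reach 3 counts, which is 3.28 to 14.1 CPM (counts scaled by the library's mouse total) in the siControl libraries and 0.0705 to 0.253 CPM in the siAATF libraries. The target gave no check of the labels: Aatf had 12, 1 and 23 counts in the siControl libraries and 384, 109 and 340 in the siAATF libraries, its log2 fold change was 0.93 ± 0.47 (SE) with an edgeR adjusted p of 0.152, and by library size alone it was -0.92. Groups are therefore called as the labels call them. All 12 hepatocyte markers were called higher in the libraries labelled siAATF on the TMM scale and 11 by library size alone. Their summed TMM level was 51810 to 127365 CPM in the siAATF libraries and 3206 to 7978 CPM in the siControl libraries. Markers of fibroblasts (6 of 7), macrophages (7 of 8), endothelium (5 of 7) and pericytes or smooth muscle (9 of 10) were called lower on the TMM scale. By library size alone these were 7, 8, 6 and 10. Of all genes 17.6% were called higher and 14.4% lower on the TMM scale, and 4.15% and 40.4% by library size alone. None of 7 erythroid markers was called on the TMM scale, and of 3 fat markers 1 was higher and 1 lower. The labels give liver as the tissue of all 6 samples and do not say whether tumour or the liver around it was taken, so a difference in the piece of tissue and the treatment cannot be told apart in any difference between the groups. In these bulk libraries fewer cells of a type and less RNA per cell cannot be told apart. siAATF replicate 2 stood apart, with 56.1% of its mouse counts on mitochondrial-genome genes, against 20.8% and 25.7% in the other siAATF libraries and 4.04% to 10.5% in the siControl libraries.

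The paralog pair that moved furthest is shown first, because both genes encode proteins of the same family and their transcripts are similar enough to be compared base by base. Coding sequences were taken from GENCODE transcripts on GRCm39, without the stop codon, and capitals mark the bases that differ between the pair or have no partner in their alignment. Ndufa4 lies on the minus strand at chr6:11900291-11907496 and Ndufa4l2 on the plus strand at chr10:127350836-127353023.
Ndufa4: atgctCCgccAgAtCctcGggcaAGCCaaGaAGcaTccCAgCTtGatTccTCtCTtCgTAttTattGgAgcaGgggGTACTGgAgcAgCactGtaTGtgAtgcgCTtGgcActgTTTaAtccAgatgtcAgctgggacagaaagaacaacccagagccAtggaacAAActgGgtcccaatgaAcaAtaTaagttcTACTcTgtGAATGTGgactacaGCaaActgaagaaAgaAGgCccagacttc
Ndufa4l2: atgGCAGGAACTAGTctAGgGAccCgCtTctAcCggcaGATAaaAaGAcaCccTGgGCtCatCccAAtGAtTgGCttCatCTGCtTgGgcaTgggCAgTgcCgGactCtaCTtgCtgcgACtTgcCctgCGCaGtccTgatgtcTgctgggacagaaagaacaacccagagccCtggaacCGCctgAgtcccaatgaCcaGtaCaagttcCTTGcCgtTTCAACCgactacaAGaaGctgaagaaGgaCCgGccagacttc
Of 242 aligned bases 165 were identical (68.2%), and the longest run without a difference was 28 bases.

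NDUFA4 is a subunit of cytochrome c oxidase, and NDUFA4L2 is its paralog, known as a target of the hypoxia-inducible factor HIF-1. Ndufa4l2 had 41, 17 and 108 counts in the siControl libraries and 78, 4 and 31 in the siAATF libraries, although the latter libraries were many times deeper. After TMM normalization its level was 32.9, 41.1 and 60.2 CPM in the siControl libraries and 2.69, 0.807 and 1.72 CPM in the siAATF libraries. Every siAATF library lay below every siControl library, and the log2 fold change was -4.58 ± 0.48 (SE, edgeR adjusted p = 5.21e-05). Ndufa4 went the other way, from 77.9, 50.7 and 53.5 CPM to 540, 122 and 328 CPM (log2 fold change 2.43 ± 0.56, adjusted p = 0.00521).

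The share of the pair's counts that fell on Ndufa4l2 does not depend on the scaling between libraries. It was 29.7%, 44.7% and 52.9% in the siControl libraries and 0.496%, 0.657% and 0.521% in the siAATF libraries. The means were 42.5% ± 11.8 and 0.558% ± 0.0864 (SD, n = 3 each), with an exact two-sided permutation p of 0.1, which is the smallest that 3 libraries against 3 allow. The 95% Wilson intervals, which cover counting error only, ran from 22.7% to 60.3% over the siControl libraries and from 0.256% to 1.68% over the siAATF libraries. Ndufa4l2 ranked 37th of the 84 members by TPM (counts per kilobase, scaled to the same sum in every library) in the siControl libraries and 81st in the siAATF libraries.

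The COX4 subunit, the largest nuclear subunit of complex IV, has a general isoform from Cox4i1 and an alternative isoform from Cox4i2 that is found in lung and in oxygen-sensing and smooth-muscle cells. Cox4i2 had 4, 3 and 18 counts in the siControl libraries and 19, 4 and 4 in the siAATF libraries. Its share of Cox4 counts was 1.23%, 3.53% and 4.83% against 0.0673%, 0.160% and 0.0266%, without overlap (exact permutation p = 0.1). The fitted log2 fold change was -3.66 ± 0.82 (edgeR adjusted p = 0.00448). Cox4i1 itself was the most abundant member by TPM in the siControl libraries, with a mean of 1054, and second in the siAATF libraries, with 858.

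Most pericyte and smooth muscle markers (9 of 10) and 6 of 11 hypoxia response genes were called lower beside these alternative isoforms on the TMM scale, where 14.4% of all genes were, and 10 of 10 and 10 of 11 by library size alone, where 40.4% were. The 10 pericyte and smooth muscle markers tested summed to 782 to 1174 CPM in the siControl libraries and to 139 to 226 CPM in the siAATF libraries. None of the hypoxia response genes was called higher, and their sum was 1242 to 1630 CPM against 443 to 1210 CPM. The part of either list in the fall of Ndufa4l2 and Cox4i2 was not tested.

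**Figure D1:**
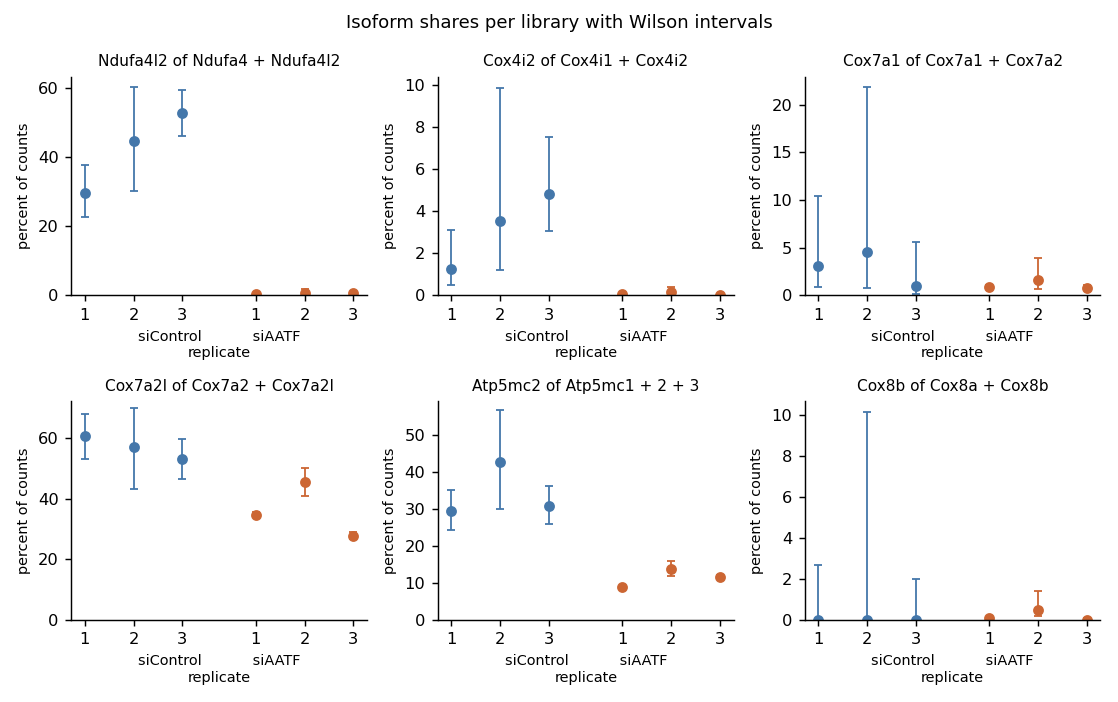
Each panel plots, for 3 libraries labelled siControl (blue) and 3 labelled siAATF (orange), the percent of a family's counts on 1 isoform gene, with its 95% Wilson interval for counting error. Ndufa4l2, Cox4i2, Atp5mc2 and Cox7a2l had lower shares in every siAATF library than in any siControl library, while the Cox7a1 and Cox8b shares overlapped.

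Isoforms typical of heart and skeletal muscle had few counts. Cox7a1, the muscle partner of Cox7a2, had 2, 1 and 1 counts in the siControl libraries and 60, 4 and 27 in the siAATF libraries, and its share of the pair was 2.87% ± 1.77 against 1.06% ± 0.425 (SD, n = 3 each, exact permutation p = 0.2). Cox8b, the muscle partner of Cox8a, had no count in any siControl library, which allows a share of up to 1.59% to 8.82% there, and 8, 3 and 0 counts in the siAATF libraries. Cox6a2 had 3 counts in siControl replicate 3, 1 count in siAATF replicate 2 and none elsewhere. Skeletal muscle markers were low in all libraries, with a sum of 0.803 to 4.83 CPM against 1.73 to 15.3 CPM, and none of the 5 tested was called. Cox6b2, the testis isoform of Cox6b1, had 0, 1 and 2 counts against 12, 0 and 25, and its levels overlapped.

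The c-ring of the ATP synthase is built from 1 mature protein that 3 genes encode with different import signals. Atp5mc2 supplied 29.5%, 42.9% and 30.8% of c-ring counts in the siControl libraries and 8.79%, 13.7% and 11.4% in the siAATF libraries (exact permutation p = 0.1). Atp5mc1 went from 25.2% ± 4.44 to 38.3% ± 3.15 and Atp5mc3 from 40.4% ± 3.28 to 50.4% ± 5.55 of the same counts, again without overlap between the groups and with the same exact permutation p of 0.1. Per kilobase of gene the Atp5mc2 share was 39.1%, 51.6% and 39.4% against 12.4%, 20.8% and 17.0%. Atp5mc2 went from 17th to 58th among the members by TPM, while its TMM level overlapped between the groups, at 64.2, 50.7 and 54.7 CPM against 91.0, 31.5 and 79.7 CPM (log2 fold change 0.25 ± 0.43, edgeR adjusted p = 0.685). By library size alone it was called lower (-1.46). The coding sequences of Atp5mc1 and Atp5mc2 were 76.5% identical over 400 aligned bases, and the longest identical run was 20 bases.

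COX7A2L, also called SCAF1, joins complexes III and IV into supercomplexes and is a relative of COX7A2. Cox7a2l was named after its values were seen. It took 60.7%, 57.1% and 53.1% of the counts of both genes in the siControl libraries and 34.7%, 45.5% and 27.7% in the siAATF libraries, without overlap (exact permutation p = 0.1). Its TMM level overlapped between the groups, at 79.5, 67.6 and 61.4 CPM against 124, 42.8 and 74.8 CPM, while Cox7a2 stood at 51.4, 50.7 and 54.1 CPM against 234, 51.2 and 195 CPM.

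Within the members, complexes I and III took larger shares of the counts in the libraries labelled siAATF. Complex I took 25.7%, 26.9% and 27.8% of member counts in the siControl libraries and 29.5%, 36.0% and 30.6% in the siAATF libraries. Complex III took 11.5%, 11.8% and 11.3% against 14.9%, 17.6% and 16.7%. The groups did not overlap for either complex. Uqcrq alone had 180, 59 and 197 of 6221, 1553 and 7235 member counts in the siControl libraries. In the siAATF libraries it had 30826, 5062 and 27083 of 604919, 56030 and 331083. The complex III share without Uqcrq and Uqcr11, its largest rises, was not computed. Complex IV went from 24.8% ± 1.33 to 21.4% ± 1.83 of member counts and complex V from 31.7% ± 1.62 to 26.4% ± 2.14 (SD, n = 3 each), without overlap, whereas the complex II shares overlapped, at 4.64% to 5.53% against 2.84% to 4.83%. With counts per kilobase these 4 directions held, complex I going from 26.2% to 30.7% and complex III from 13.2% to 16.9%, and the complex II share was lower without overlap, at 2.59% to 2.99% against 1.48% to 2.38%.

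How much of the mouse RNA the members took depended on what was counted with them. Members held 0.885%, 0.729% and 0.792% of all mouse counts in the siControl libraries and 1.42%, 0.473% and 0.947% in the siAATF libraries, which overlapped. With the genes of the mitochondrial genome left out of the total, the shares were 0.922%, 0.815% and 0.851% against 1.91%, 1.08% and 1.20%, and no longer overlapped. The lowest share of the 6 libraries on the first measure, that of siAATF replicate 2, belonged to the library with the largest share of mitochondrial-genome counts. Per kilobase of gene the members' share overlapped as well and its means stood the other way, at 1.70% ± 0.165 in the siControl libraries and 1.60% ± 0.868 in the siAATF libraries (SD, n = 3 each). Protein-coding genes of the mitochondrial genome took 5.36% ± 1.99 of mouse counts in the siControl libraries and 24.3% ± 10.8 in the siAATF libraries. For each of their counts there were 0.169 ± 0.0795 nuclear member counts in the siControl libraries and 0.0474 ± 0.0304 in the siAATF libraries, without overlap.

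**Figure D2:**
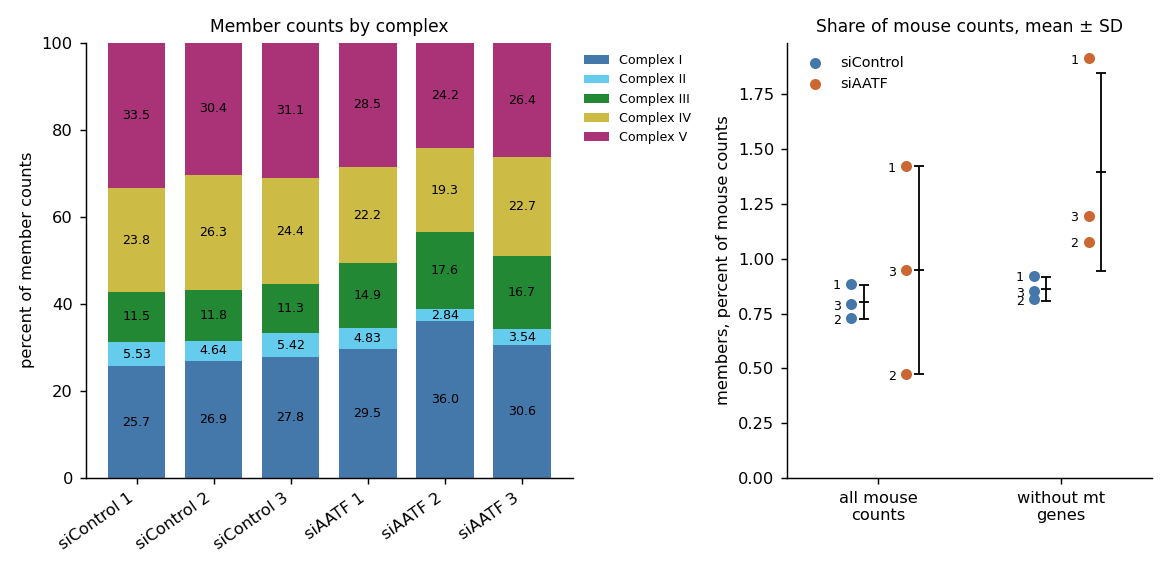
The left panel stacks the percent of member counts on each complex in every library, and the right panel plots the members' percent of mouse counts per library (numbers are replicates, bars the mean ± SD), with and without mitochondrial-genome (mt) genes in the total. Complexes I and III took larger shares in each siAATF library than in any siControl library, and the right-hand groups separate only without mt genes.

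On the TMM scale most members were higher in the libraries labelled siAATF. The edgeR quasi-likelihood test called 66 of 84 members higher and 2 lower at an adjusted p under 0.05, where 32.0% of 18018 genes tested were called in either direction, 17.6% higher and 14.4% lower. The levels of 64 members lay higher without overlap and those of 3 lower (Ndufa4l2, Cox4i2 and Atp5if1), against 34.5% and 18.1% of all genes. The median log2 fold change of the members was 2.00, and that of all genes was 0.50, so the members stood 1.50 above it. These directions rest on the scaling: by library size alone the members' median was 0.28 and that of all genes -1.30, with 2 members called higher (Ndufa10 and Uqcr11), against 4.15% of all genes, and 5 lower (Ndufa4l2, Cox4i2, Cox7a2l, Atp5if1 and Atp5mc2), against 40.4% of all genes. By complex these were 1 higher in complex I, 1 higher in complex III, 3 lower in complex IV and 2 lower in complex V. The distance of the members from the median of all genes was 1.58 on that scale, and the medians of the complexes were 0.40 (I), -0.062 (II), 0.41 (III), 0.087 (IV) and 0.15 (V). Without siAATF replicate 2 the TMM fit called 75 members higher, against 20.5% of all genes, and without siControl replicate 3 it called 44, against 9.08% of all genes.

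When library size was set to the summed counts of the members, a scale chosen after seeing the data, changes within the pathway could be read apart from its level. This member scale fixes the members' summed counts and not their median, which was 0.032. On it 3 members were called higher (3.78% of all genes) and 7 lower (41.8% of all genes). The 3 were Uqcrq (log2 fold change 1.25, edgeR adjusted p = 0.0282), Uqcr11 (1.16, adjusted p = 0.0217) and Ndufb9 (1.09, adjusted p = 0.0353). The 7 were Ndufa4l2 (-6.71), Cox4i2 (-5.69), Atp5if1 (-3.17), Cox7a2l (-1.82), Atp5mc2 (-1.79), Sdhd (-1.36) and Atp5f1b (-1.12), with edgeR adjusted p from 4.84e-06 to 0.0382. Atp5f1b, like Cox7a2l, was named after its values were seen.

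**Figure D3:**
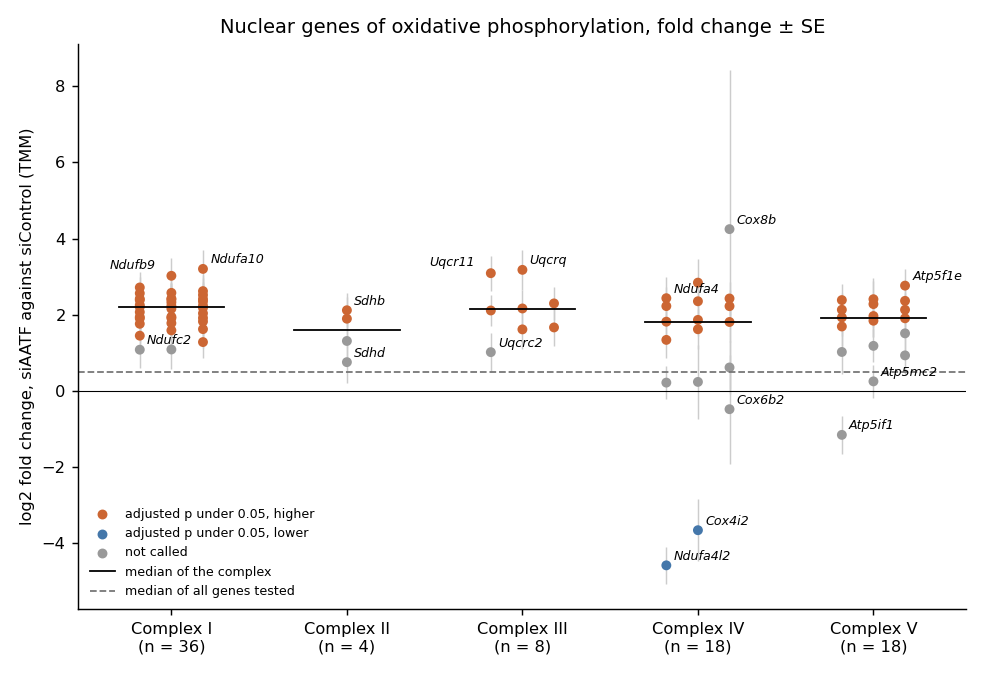
Points give the log2 fold change of each member on the TMM scale (siAATF against siControl, with its standard error) by complex, coloured by the edgeR call, with the median of each complex (black) and of all genes tested (dashed, 0.50). Complex medians lie between 1.60 and 2.19, and the 2 members called lower, Ndufa4l2 and Cox4i2, both stand in complex IV.

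Complex I takes electrons from NADH through a matrix arm with flavin and iron-sulfur clusters, which its 7 nuclear core subunits form, and carries many accessory subunits around it. All 7 core genes were called higher on the TMM scale, with log2 fold changes from 1.28 (Ndufs1, an iron-sulfur subunit) to 2.33 (Ndufs7), though they did not all stay above 0 by library size alone (Ndufs1 -0.43 and Ndufv2 -0.15). Their median was 1.82, and that of the 29 accessory genes was 2.23, of which 27 were called higher, where 17.6% of all genes were. By library size alone 1 of 36 complex I members was called higher, against 4.15% of all genes. Ndufv1, the flavin-binding subunit, had 38.5, 19.3 and 29.0 CPM in the siControl libraries and 161, 73.0 and 108 CPM in the siAATF libraries, without overlap (log2 fold change 1.94 ± 0.44).

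The largest rises of complex I were in accessory genes. Ndufa10, an accessory subunit of the membrane arm that resembles nucleoside kinases, had 45.0, 55.6 and 47.4 CPM in the siControl libraries and 325, 693 and 337 CPM in the siAATF libraries, with its highest value in replicate 2 (log2 fold change 3.20 ± 0.50, edgeR adjusted p = 0.000451). Ndufb9 had 33.7, 19.3 and 24.0 CPM against 298, 166 and 174 CPM (log2 fold change 3.02 ± 0.46, adjusted p = 0.000367). Ndufa5 followed with 2.72 ± 0.39. The 2 accessory genes that were not called, Ndufc2 and Ndufa12, had log2 fold changes of 1.08 and 1.09 on the TMM scale and of -0.59 and -0.64 by library size alone, and their levels overlapped. Both were named after their values were seen.

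Ndufa12 shares most of its coding sequence with a processed pseudogene. Ndufa12-ps is 99.5% identical to the Ndufa12 coding sequence over 399 aligned bases, and it took 35.1%, 28.6% and 25.0% of the counts of both in the siControl libraries and 49.2%, 68.4% and 47.2% in the siAATF libraries. Reads that mapped equally well to several places had been discarded, so the counts of Ndufa12 are uncertain, and how many reads were lost this way was not tested. The same holds for Cox5b and Cox5b-ps, which are 99.2% identical over 387 bases, Cox5b-ps being annotated as protein coding with 2, 0 and 5 counts against 360, 93 and 193. Members and pseudogenes of this kind were named after their values were seen, except Cox5b-ps.

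Complex II, which oxidizes succinate and is also an enzyme of the citric acid cycle, had 2 of its 4 members called higher on the TMM scale, Sdhb (log2 fold change 2.12 ± 0.45) and Sdhc (1.90 ± 0.56), and none by library size alone. Among all genes 17.6% were called higher on the TMM scale and 4.15% by library size alone. Sdhd, a membrane anchor, had 74.7, 50.7 and 62.5 CPM in the siControl libraries and 188, 30.9 and 99.8 CPM in the siAATF libraries, so that replicate 2 lay below all siControl values. Sdha, the flavoprotein, had 72.3, 60.4 and 58.0 CPM against 283, 88.1 and 102 CPM, which did not overlap, with an edgeR adjusted p of 0.0604. The log2 fold changes of Sdha and Sdhd, 1.31 and 0.75 on the TMM scale, were -0.35 and -0.89 by library size alone.

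In complex III, which passes electrons from ubiquinol to cytochrome c, 7 of 8 members were called higher on the TMM scale, and 1 by library size alone. The shares of all genes called higher were 17.6% and 4.15%. Uqcrq, a small subunit that binds next to cytochrome b, had 145, 143 and 110 CPM in the siControl libraries and 1064, 1021 and 1502 CPM in the siAATF libraries, without overlap (log2 fold change 3.18 ± 0.52, edgeR adjusted p = 0.000646). It moved from 19th to 4th of the members by TPM. Uqcr11 had 60.2, 36.2 and 45.2 CPM against 478, 312 and 430 CPM (3.09 ± 0.46), and Uqcrfs1, the Rieske iron-sulfur protein, had a log2 fold change of 2.30 ± 0.43. The core protein gene Uqcrc2 was not called: it had 24.2 to 47.4 CPM in the siControl libraries and 24.8 to 95.6 CPM in the siAATF libraries, with siAATF replicate 2 inside the siControl range.

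In complex IV 11 of 18 members were called higher and 2 lower on the TMM scale (17.6% and 14.4% of all genes), against none higher and 3 lower by library size alone (4.15% and 40.4% of all genes). The general isoform genes Cox4i1 (log2 fold change 1.82), Cox6a1 (1.81), Cox6b1 (1.86), Cox7a2 (1.62) and Cox8a (1.34) were all called on the TMM scale, of which Cox7a2 (-0.075) and Cox8a (-0.36) turned below 0 by library size alone, and Cox7b and Cox7c had 2.23 and 2.43. Cox8a had 112, 82.1 and 105 CPM against 375, 127 and 261 CPM, and it went from 2nd to 11th of the members by TPM. Cox5a, named after its values were seen, had 60.2, 33.8 and 35.7 CPM in the siControl libraries and 137, 9.48 and 53.5 CPM in the siAATF libraries, the lowest of these again in replicate 2.

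In complex V 12 of 18 members were called higher and none lower on the TMM scale, against none higher and 2 lower by library size alone, with the same shares of all genes. The highest was Atp5f1e, the small epsilon subunit of the central stalk, with 82.7, 79.7 and 64.7 CPM against 473, 517 and 549 CPM (log2 fold change 2.76 ± 0.45, edgeR adjusted p = 0.000562). By TPM it was the most abundant member in the siAATF libraries, with a mean of 975 against 665 in the siControl libraries. Atp5f1b, the catalytic beta subunit, had 317, 237 and 228 CPM against 785, 238 and 468 CPM, so that siAATF replicate 2 lay within the siControl range (log2 fold change 0.93 ± 0.52, adjusted p = 0.192). Atp5if1, the inhibitor that blocks hydrolysis of ATP by the complex, had 36.1, 24.2 and 19.0 CPM in the siControl libraries and 11.3, 4.84 and 18.9 CPM in the siAATF libraries. Its siAATF values lay below all siControl values, by a narrow margin in replicate 3, with a log2 fold change of -1.16 ± 0.49 and an adjusted p of 0.0917 on the TMM scale, and it was called lower by library size alone (-2.91, edgeR adjusted p = 0.000262).

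**Figure D4:**
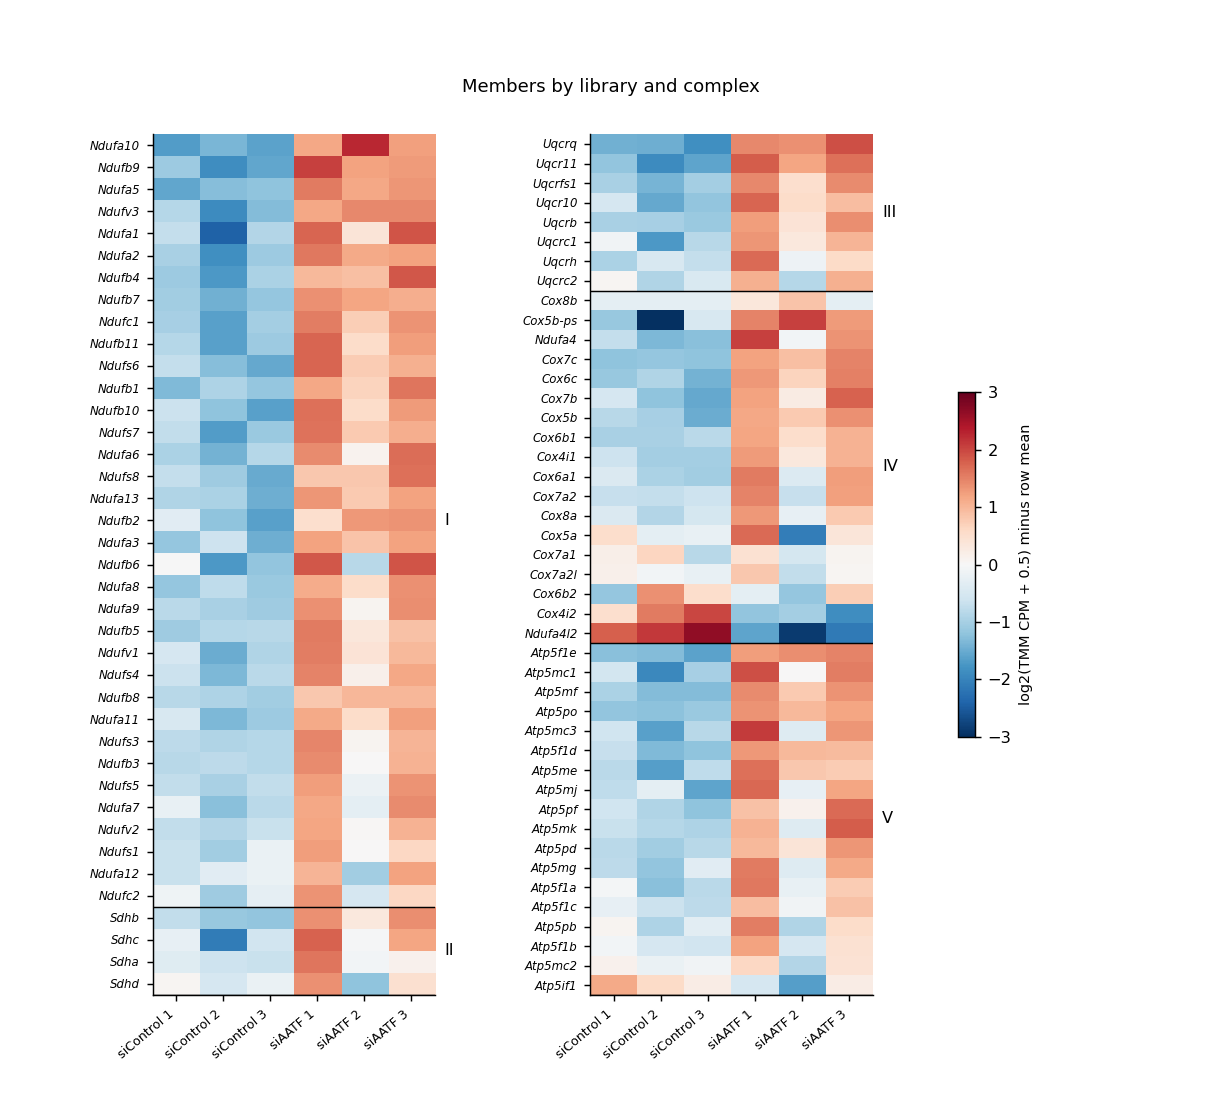
Each cell gives log2(TMM CPM + 0.5) of a member in a library minus the member's mean over the 6 libraries, with all members but 1 grouped by complex and ordered by log2 fold change. The siControl columns lie mostly below and the siAATF columns mostly above the mean, with siAATF replicate 2 below the mean of replicates 1 and 3 in most rows and Ndufa4l2 and Cox4i2 inverted.

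The libraries labelled siAATF did not agree on the members' level. On the log2 scale replicate 2 lay below the mean of replicates 1 and 3 for 76 of 84 members, with a median difference of -0.94, against -0.16 over all genes. The difference ran from -3.26 (Cox5a) to 1.07 (Ndufa10). Its median was -0.80 in complex I and -1.41 in complex V. Across the 84 members the difference had a Spearman rho of 0.56 with the log2 fold change, which is fitted on the same libraries, against 0.12 over 13884 genes with a coding length.

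Members with short coding sequences had somewhat larger fold changes. The 25 members with at most 300 coding bases had a median log2 fold change of 2.23 and the 16 with more than 700 had 1.59. Across the 84 members the Spearman rho between coding length and log2 fold change was -0.24, and over 13884 genes it was -0.061. Its relation to RNA quality was not tested.

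Promoters of respiratory genes are known to carry sites of NRF1, of ETS factors such as GABP, and of YY1. RefSeq windows on GRCm38.p6, an earlier build than that of the counts, of 300 bases (250 before to 50 after the start) were found for 67 members, which have 72 windows. The NRF1 core GCGCATGCG, on either strand, stood in 11.1% of member windows and in 1.75% of 32851 windows of all genes. The ETS core CCGGAAG stood in 22.2% against 8.86%, and the YY1 letters AAGATGGCG in 9.72% against 1.40%. The 26 members with any of the 3 had a median log2 fold change of 1.98, 24 of them called higher, and the 41 with none had 2.18, 30 of them called higher. On the same TMM scale 17.6% of all genes were called higher. By motif the median was 1.86 for the 8 members with the NRF1 core, 1.90 for the 16 with the ETS core and 2.33 for the 7 with the YY1 letters. Shown are the 250 bases before the start of a gene called higher on both scales (Uqcr11), of a general isoform (Cox6a1) and of the c-ring gene whose share was lower (Atp5mc2), with NRF1, ETS and YY1 letters in capitals, at chr10:80406822-80407071, chr5:115348959-115349208 and chr15:102671048-102671297, all on the minus strand.
Uqcr11: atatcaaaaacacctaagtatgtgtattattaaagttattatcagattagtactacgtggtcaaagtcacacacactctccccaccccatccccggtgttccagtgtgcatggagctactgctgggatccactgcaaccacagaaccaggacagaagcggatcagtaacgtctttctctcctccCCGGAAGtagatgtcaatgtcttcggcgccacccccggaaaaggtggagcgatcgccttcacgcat
Cox6a1: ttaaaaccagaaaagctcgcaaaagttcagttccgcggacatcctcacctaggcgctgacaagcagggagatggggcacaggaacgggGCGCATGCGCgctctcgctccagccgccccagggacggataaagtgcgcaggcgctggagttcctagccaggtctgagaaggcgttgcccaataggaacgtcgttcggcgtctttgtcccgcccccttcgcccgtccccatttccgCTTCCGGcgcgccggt
Atp5mc2: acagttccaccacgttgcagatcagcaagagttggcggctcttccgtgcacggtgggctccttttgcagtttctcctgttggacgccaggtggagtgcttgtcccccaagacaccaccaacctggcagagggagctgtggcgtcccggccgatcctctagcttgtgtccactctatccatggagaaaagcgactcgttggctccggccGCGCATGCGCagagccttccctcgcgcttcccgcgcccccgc
Atp5mc2 and Cox6a1 hold the NRF1 letters in the bases shown, and Uqcr11 holds them in its 300-base window, in letters that reach past the end of the stretch shown. The log2 fold changes of these genes on the member scale were -1.79, -0.26 and 1.16.

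Genes that build, feed or regulate the chain were read from lists chosen with earlier results known. They stood above the median of all genes by less than the members did, and the sign of their own medians turned with the scaling. These counts are to be read against all genes tested, of which 17.6% were called higher and 14.4% lower on the TMM scale, and 4.15% higher and 40.4% lower by library size alone. Of 48 assembly factors 19 were called higher and none lower on the TMM scale, with a median log2 fold change of 1.30, while by library size alone none was called in either direction and the median was -0.45. Measured from the median of all genes this was 0.80 and 0.86 on the 2 scales, against 1.50 and 1.58 for the members. Ndufaf2, a complex I assembly factor, had 7.23, 2.42 and 3.35 CPM in the siControl libraries and 22.0, 45.6 and 46.7 CPM in the siAATF libraries. Of 78 mitochondrial ribosomal proteins 40 were called higher and none lower (median 1.27), against none higher and 6 lower by library size alone (median -0.48). Of 21 electron carriers and entry enzymes 12 were called higher and none lower (median 1.44), against 3 and 3 by library size alone (median -0.32). This list also holds Cyc1 and Ndufab1, subunits of complexes III and I that the symbol rule missed. Both were called higher on the TMM scale, with log2 fold changes of 1.92 and 1.89. The largest rise of that list was in Prodh, which passes the electrons of proline oxidation to the chain, from 3.21, 2.42 and 2.79 CPM to 204, 198 and 198 CPM. Of 13 citric acid cycle genes 5 were called higher and none lower (median 0.96), against 1 and 2 by library size alone (median -0.74), and Suclg2 and Fh1 had the largest rises on the TMM scale, of 3.08 and 2.75.

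The list of mitochondrial transport genes holds the ADP/ATP carriers, the phosphate carrier Slc25a3 and the uncoupling protein gene Ucp2 of the inner membrane, and the 3 Vdac porins of the outer membrane. Of 8 tested, none was called higher on either scale. On the TMM scale 2 were called lower, against 14.4% of all genes, and by library size alone 6, against 40.4%. Slc25a4, the ADP/ATP carrier of heart and muscle, had 95.5, 70.1 and 88.7 CPM in the siControl libraries and 9.28, 4.24 and 12.6 CPM in the siAATF libraries (log2 fold change -3.26 ± 0.45, edgeR adjusted p = 0.000197). Ucp2, an uncoupling protein known from immune cells, had 343, 283 and 300 CPM against 25.2, 13.1 and 41.7 CPM (-3.53 ± 0.51, adjusted p = 0.000277). Of 14 regulators of mitochondrial biogenesis 6 were called higher and none lower on the TMM scale, against none higher and 6 lower by library size alone, where 40.4% of all genes were called lower. The largest rises on the TMM scale were in the coactivator genes Ppargc1a and Ppargc1b. Ppargc1a had 1, 1 and 1 counts in the siControl libraries (0.803, 2.42 and 0.558 CPM), against 13.8, 12.9 and 9.54 CPM in the siAATF libraries. Ppargc1b had 2, 0 and 3 counts (1.61, 0 and 1.67 CPM) against 7.97, 25.8 and 4.99 CPM. No siControl count of either gene passed 3, so the size of these rises is uncertain. Markers of macrophages, of which 7 of 8 were called lower, summed to 1430 to 4605 CPM against 115 to 206 CPM; their part in the fall of Ucp2 was not tested.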

How the data were processed

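RNA of 6 samples was sequenced from full-length cDNA (SMART-Seq). Per the labels and the study's methods, the authors aligned reads with STAR (2.7.11) to the joined human and mouse genomes, kept reads with a single place in either species, and counted genes with featureCounts (2.0.1). The deposited counts are whole numbers without normalization. Whether counting used strand is not given in the sources used here. The human table served only for totals.

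Mouse identifiers were named from GENCODE vM39 (GRCm39): 56323 matched and 561 did not. Coordinates of genes are those of the deposited table, and sequences came from GENCODE transcripts and RefSeq promoters. Counts were tested with edgeR 4.0.16 (R 4.3.3; quasi-likelihood, TMM, group as the only term, Benjamini-Hochberg adjustment over the 18018 genes whose counts summed to 10 or more, called at an adjusted p under 0.05). CPM were TMM-scaled, and TPM used deposited gene lengths. Shares were compared by exact two-sided permutation tests with Wilson 95% intervals, which cover counting error only, since PCR copies are not independent molecules. Depth is given with the libraries. The procedure was tested on simulated data.

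Named genes were isoform, c-ring, inhibitor, complex I core and complex II members, per complex the 3 largest called rises and falls and the highest and lowest TPM, members called against their complex, the 2 largest called rises and falls of each other list, and Aatf. The values of 1 member are not reported here. Members and lists were chosen with earlier results of these data known. Alternatives were DESeq2 1.42.0, limma-voom (limma 3.58.1), other scalings and filters, thinning, the replicate block and leaving out each library. The labels do not say that replicates are separate mice, so p-values measure only the spread between these samples, which may be technical. Python 3.11.15, SciPy 1.17.1, Biopython 1.88 and matplotlib 3.10.9 were used.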

Additional observations from a re-analysis of the deposited data

How the results depend on the processing

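The members' direction rested on the scaling between libraries. By library size alone 2 members were called higher and 5 lower, and the median log2 fold change was 0.28. With the library size set to the summed member counts (chosen after seeing the data) these were 3, 7 and 0.032. Of all genes 4.15% were called higher and 40.4% lower on the first of these scales, and 3.78% and 41.8% on the second. After thinning to the smallest total 41 of 80 members were higher and 2 lower, with a median of 1.36, against 1219 and 1785 of 9653 genes. At least 10 counts in every library left 57 members, 48 called higher and 1 lower, against 872 and 873 of 3552 genes. With an unadjusted edgeR p under 0.05 and a log2 change no smaller than 2 either way, the counts were 41 higher and 2 lower. No share of all genes is given for this cut. DESeq2, limma-voom, RLE, upper quartile, filterByExpr, no filter and leaving out mitochondrial genes gave 59 to 69 higher and 2 or 3 lower. Of the 12412 to 56884 genes in these fits, 2454 to 3409 were called higher and 2477 to 3065 lower. Leaving out each library in turn gave 1 to 3 members called lower (1 without siControl replicate 3) and 44 to 75 called higher. Of the 16290 to 17956 genes then tested, 1611 to 3579 were called higher and 1722 to 2509 lower. With the 100 genes of highest total left out of the denominator, the members' share of mouse counts was 1.60 percentage points higher in the siAATF libraries, against 0.145 with all genes, and per kilobase of gene it was 0.099 points lower, at 1.60% against 1.70%, which overlapped. Among genes whose fold change or level is reported, signs turned by library size alone for Ndufv2 (-0.15), Ndufc2 (-0.59), Ndufa12 (-0.64), Ndufs1 (-0.43), Sdha (-0.35), Sdhd (-0.89), Cox7a1 (-1.45), Cox7a2 (-0.075), Cox8a (-0.36), Cox5a (-0.97), Cox7a2l (-1.48), Atp5f1b (-0.75), Atp5mc2 (-1.46), Uqcrc2 (-0.68) and Aatf (-0.92), after thinning for Sdha (-0.17), Cox5a (-0.039), Atp5mc2 (-1.30) and Aatf (-0.11), by upper quartile for Cox7a1 (-0.062), Cox7a2l (-0.096) and Atp5mc2 (-0.066), and with limma-voom for Cox7a1 (-0.039), Cox5a (-0.19) and Cox8b (-1.69). On leaving out libraries the log2 fold change of Cox7a1 ran from -0.34 to 0.60, that of Cox6b2 from -1.61 to 0.059, that of Cox7a2l from -0.21 to 0.58 and that of Cox5a from -0.43 to 1.20. The causes were not tested. The members' median stood 1.35 to 1.91 above the median of all genes in every fit but that without a filter. There it stood 2.10 above the median of 56884 genes, most of which did not reach 10 counts. The replicate numbers did not pair the samples (correlations of same-numbered deviations 0.145, 0.212 and -0.023, with 3 of 6 libraries correlating best with their own number). With the replicate block 71 members were called higher and 3 lower, against 3854 and 2912 of 18018 genes. Levels in the siControl libraries rest on 1553 to 7235 member counts, so genes with few counts there are the least certain.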
